A study of Oryza sativa with 12 samples.

Results

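NIL-Prl5 is a near-isogenic rice line that carries the ST-1 segment with PANICLE RACHIS LENGTH5 (Prl5, the gibberellin 20-oxidase gene GA20ox4) on chromosome 5 in the background of the japonica cultivar Koshihikari. Its 3 libraries of 2-mm young panicles were set against the 3 libraries of Koshihikari at the same stage, out of the 12 libraries of the series, to ask which transcripts differ when the Prl5 segment alone is present. NIL-Prl5 was selected with markers after repeated backcrossing of an ST-1 cross to Koshihikari, and it is a single line, so the effect of Prl5 cannot be told apart from that of any other ST-1 sequence the line holds. The remaining 6 libraries, NIL-Prl5+Pbl6 (both ST-1 segments) and NIL-Pbl6 (the ST-1 segment with the F-box gene APO1 on chromosome 6), differ from each other by the Prl5 segment as well and share no library with the first comparison, so they were used as a second comparison of the same segment. No label says whether the replicates of a line came from separate plants, and the p-values measure only the spread between these libraries.

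Gibberellins are plant hormones that promote cell division and elongation. GA 20-oxidases catalyse late steps of gibberellin synthesis, and the products are converted by GA 3-oxidases to bioactive forms and removed by GA 2-oxidases. In rice, the homologue GA20ox2 (SEMIDWARF1) is known for its effect on culm length, and the panicle at this stage is an inflorescence axis whose branches are forming spikelets.

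Reads had been counted per annotated transcript, and 31643 of 40722 transcripts (25551 of 34126 loci) passed the filter on low counts, of which 2622 lay on chromosome 5 and 29021 on the other chromosomes. Total counts were 18844291 to 31760529 in NIL-Prl5 and 20806889 to 24028424 in Koshihikari. Expression is given below as cpm (counts scaled to 1000000 in the normalised library), and a count of 3 in a library equals 0.0977 to 0.165 cpm in NIL-Prl5 and 0.119 to 0.145 cpm in Koshihikari. Normalisation was done separately for the libraries of each comparison, so cpm values of the first and the second comparison are not on a common scale. The replicates numbered 2 stood apart from their lines. On the first principal component of log expression (57.6% of the variance), NIL-Prl5 replicates 1, 2 and 3 were at 36.1, 6.76 and 37.9 and Koshihikari replicates 1, 2 and 3 at -41.0, -0.787 and -38.9, and Koshihikari replicate 2 had a mean correlation of 0.986 with its own line and of 0.988 with NIL-Prl5. The counts of changed transcripts below depend on these libraries, and counts without them are given beside the totals and the gene lists.

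Prl5 itself was a low transcript that did not pass the test. Os05t0421900-00 was at 3.02, 2.87 and 2.74 cpm in NIL-Prl5, against 2.49, 2.75 and 2.18 cpm in Koshihikari. NIL-Prl5 replicates 1 and 2 were above every Koshihikari library, and replicate 3 was just under Koshihikari replicate 2, so the lines overlapped. The log2 fold change was 0.22 ± 0.19 (SE; edgeR quasi-likelihood test, Benjamini-Hochberg adjusted p = 0.489; exact two-sided permutation test p = 0.2, where 3 against 3 libraries allow no p under 0.1). In the second comparison it was 0.22 as well (edgeR adjusted p = 0.617). Of the 21 transcripts tested from the 10 loci on each side of Prl5, 3 changed. A hypothetical protein (Os05t0420000-01) fell by 3.84 on the log2 scale, a protein kinase (Os05t0423500-01) fell by 1.02, and the PISTILLATA-like MADS-box gene Os05t0423400-01 rose by 0.92. The share was close to that of the wider run of loci around Prl5 described below, where 53 of 364 transcripts changed (14.6%). On the whole chromosome 2.97% changed.

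On chromosome 5, 78 of 2622 transcripts changed at an adjusted p under 0.05 (2.97%), of which 27 were higher (1.03%) and 51 lower (1.95%) in NIL-Prl5. The share on all other chromosomes was 0.541%, and over all transcripts 0.743%. In none of these transcripts did the 6 libraries of the lines overlap. They were chosen by the test on the same libraries, and overlap was not counted over all transcripts. The median log2 fold change was 1.09 among the higher and -1.42 among the lower, and 18 and 37 of them differed at least 2-fold. Of the lower transcripts 29 of 51 (56.9%) had a description that named no function, against 37.8% of the tested transcripts of the chromosome, and of the higher ones 10 of 27 had none. At an unadjusted P under 0.05 the counts were 335 higher and 396 lower (12.8% and 15.1%). Without both replicates numbered 2 the adjusted counts became 467 higher and 561 lower (17.8% and 21.4%), so that the number of calls depends on these libraries.

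The changed transcripts were not spread evenly along the chromosome. When the tested loci were taken in order in windows of 100, the 3 neighbouring windows 11 to 13 of 22 held 53 of the 78 (15 higher and 38 lower), which was 14.6% of the 364 transcripts tested there and came from 47 of 300 loci. This run extended from Os05g0387800 to Os05g0453500 and contains Prl5. The 19 other windows of chromosome 5 held 25 changed transcripts, at most 3.08% in a window. None of the 240 windows of the other chromosomes held more than 5 changed transcripts, and the highest share was 7.69%, in a short last window of chromosome 4. In the second comparison, 246 transcripts changed (0.777%), of which 114 were on chromosome 5 (4.35%) and 132 elsewhere (0.455%). The same 3 windows held 70 of them, or 19.2% of the transcripts there. In that comparison the share was also raised in the following windows 14, 15 and 16, at 9.02%, 9.38% and 7.26%, against 2.46%, 2.34% and 2.42% in NIL-Prl5 against Koshihikari. How far the ST-1 segment extends in each line was not tested here.

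**Figure D1:**
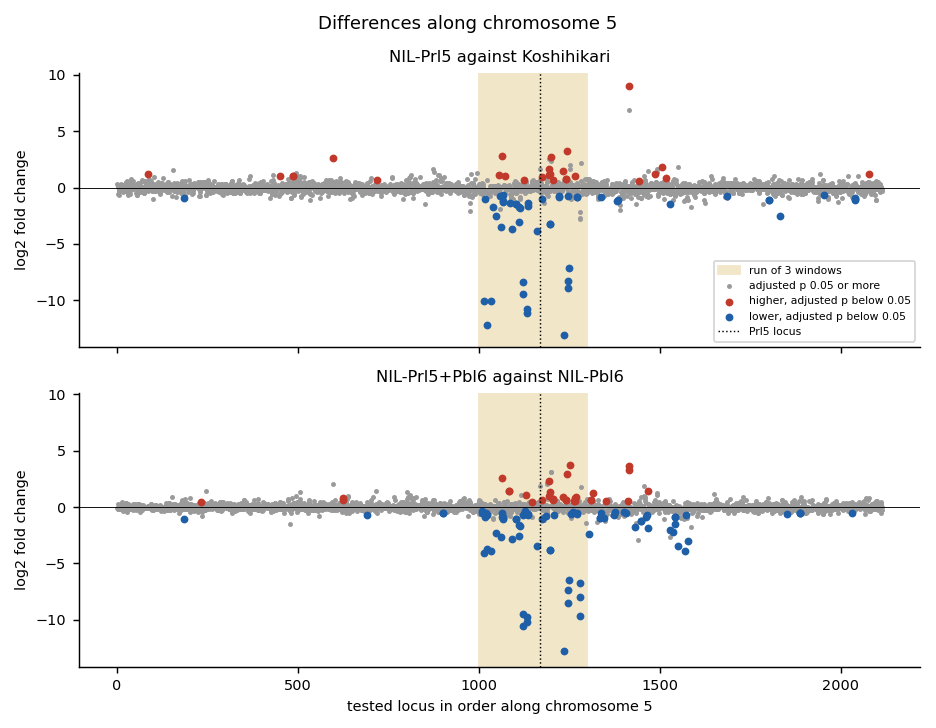
Log2 fold change of every tested transcript of chromosome 5 (y axis) against the order of its locus along the chromosome (x axis), for NIL-Prl5 against Koshihikari (above) and NIL-Prl5+Pbl6 against NIL-Pbl6 (below); red and blue points are transcripts with an adjusted p under 0.05, the shaded band is the run of 3 windows and the dotted line is Prl5. In the upper plot 53 of the 78 coloured points lie in the band, and most of the strongly lower points are found there in both plots. Fitted values beyond about 10 belong to transcripts with no or almost no count in 1 line and are not measured folds.

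**Figure D2:**
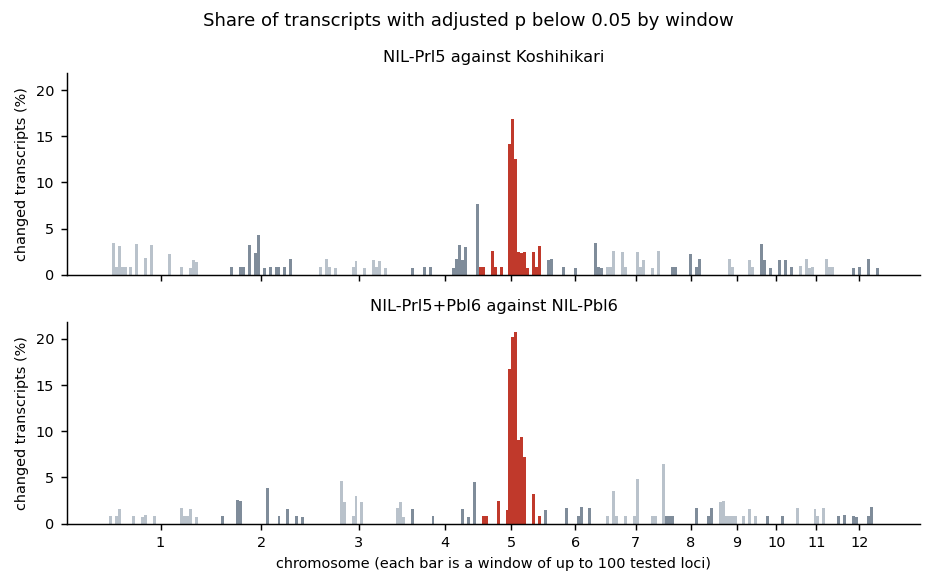
Share of tested transcripts with an adjusted p under 0.05 (y axis, percent) in consecutive windows of up to 100 tested loci over chromosomes 1 to 12 (x axis), for NIL-Prl5 against Koshihikari (above) and NIL-Prl5+Pbl6 against NIL-Pbl6 (below), with chromosome 5 in red. The 3 neighbouring windows of chromosome 5 stand at 14.2%, 16.9% and 12.5% in the upper plot, above all windows of the other chromosomes.

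Among the genes of the run that rose, the largest change was in a chitinase-like gene. Chitinases cleave the chitin of fungal walls and are known as defence proteins. Os05t0399300-01 was at 6.05, 7.22 and 6.45 cpm in NIL-Prl5, against 0.394, 1.35 and 1.11 cpm in Koshihikari, a 6.93-fold difference (log2 2.79 ± 0.29, edgeR adjusted p = 0.000817), and it was likewise high in the other pair of lines at 5.29, 4.97 and 4.78 cpm in NIL-Prl5+Pbl6, against 0.749, 0.820 and 0.894 cpm in NIL-Pbl6 (log2 2.62). In each comparison all libraries with the segment thus exceeded all those without it. A potassium channel gene similar to maize ZMK2 (Os05t0428700-01) was at 14.5, 16.9 and 11.1 cpm in NIL-Prl5, against 4.94, 3.77 and 4.76 cpm in Koshihikari, 3.15-fold higher (log2 1.65 ± 0.18, edgeR adjusted p = 0.00105), with 16.8, 19.2 and 22.3 cpm in NIL-Prl5+Pbl6 against 4.19, 4.19 and 3.51 cpm in NIL-Pbl6. A gene described as a hydroxymethyltransferase, Os05t0429000-01, was at 16.5, 15.1 and 16.2 cpm in NIL-Prl5 and 7.57, 5.89 and 7.45 cpm in Koshihikari (log2 1.19 ± 0.13, edgeR adjusted p = 0.00131). The Rossmann-fold protein gene Os05t0428400-00 in the same stretch was 2.13-fold higher (log2 1.09 ± 0.11), at 45.2, 47.9 and 43.3 cpm in NIL-Prl5 against 23.0, 20.1 and 20.8 cpm in Koshihikari. These 4 kept their call whichever single library was left out.

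Actin forms the filaments of the cytoskeleton. The Actin 1-like transcript Os05t0438800-01 was at 7.75, 6.23 and 8.89 cpm in NIL-Prl5 and 2.62, 3.77 and 1.86 cpm in Koshihikari (log2 1.48 ± 0.23, edgeR adjusted p = 0.0162), and rose in the second comparison by 0.89. Because actin genes are close paralogs and the handling of reads that match several genes is not given in the sources used here, the source of these reads is uncertain. A dnaJ-domain gene, whose class of proteins are co-chaperones of HSP70, rose by 1.13 ± 0.17 (Os05t0397800-01, edgeR adjusted p = 0.0127), while its log2 fold change in the second comparison was 0.36 (edgeR adjusted p = 0.291). Both of these calls were lost in 3 of the 6 fits that left out 1 library. Outside the largest changes, several further genes of the run with named functions rose, namely the G10 homologue Os05t0446300-01 (log2 1.01), a histone deacetylase gene (Os05t0440250-01, 0.72) and a glutathione S-transferase gene (Os05t0412800-01, 0.70), which averaged 664 cpm in NIL-Prl5 and 408 cpm in Koshihikari.

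The PISTILLATA-like gene, OsMADS4, encodes a B-class MADS-box factor of lodicule and stamen identity and lies 5 tested loci from Prl5. Os05t0423400-01 was at 27.7, 23.2 and 28.8 cpm in NIL-Prl5 and 13.2, 11.2 and 17.6 cpm in Koshihikari (log2 0.92 ± 0.16, edgeR adjusted p = 0.0267). The other pair of lines had 22.5, 24.9 and 19.0 cpm in NIL-Prl5+Pbl6 and 15.8, 15.4 and 12.9 cpm in NIL-Pbl6 (log2 0.59, edgeR adjusted p = 0.0172). The libraries did not overlap in either comparison. Its call in the first comparison was kept in 3 of the 6 fits without a library. Its B-class partner SPW1 (OsMADS16) lies on chromosome 6, outside any segment of NIL-Prl5 named by the labels, and also rose, at 65.7, 54.1 and 77.4 cpm in NIL-Prl5 and 37.7, 35.3 and 44.3 cpm in Koshihikari (Os06t0712700-01, log2 0.75 ± 0.14, edgeR adjusted p = 0.0364), with a log2 fold change of 0.39 in the second comparison (edgeR adjusted p = 0.0605). The call of SPW1 was kept in 2 of the 6 fits without a library.

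The genes of the run that fell included transcripts that were almost lost in NIL-Prl5. An HMG-I/Y gene, whose class of proteins bind the minor groove of AT-rich DNA, was at 0.110, 0 and 0.130 cpm in NIL-Prl5, against 24.1, 33.3 and 23.9 cpm in Koshihikari (Os05t0412300-01, edgeR adjusted p = 1.03e-07). With the Pbl6 segment present it was at 0.0518, 0 and 0.0493 cpm in NIL-Prl5+Pbl6, against 29.5, 24.6 and 24.7 cpm in NIL-Pbl6. All 6 libraries with the segment were thus at 0 or near the level of 3 counts. The neighbouring unnamed gene Os05t0412400-01 was likewise at 0.0475 cpm on average in NIL-Prl5 and 31.5 cpm in Koshihikari, and as strand was not given in the sources used here, reads of neighbouring or overlapping genes could not be separated. Whether reads of an ST-1 allele failed to match the reference genome was not tested, and for all genes of the run that fell this cannot be told apart from a lower transcript level.

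A gene for an endo-1,3;1,4-beta-glucanase, an enzyme that cleaves the mixed-linkage glucan of grass cell walls, lies directly beside the chitinase-like gene and moved in the opposite direction. Os05t0399200-01 was at 0.165, 0.212 and 0.358 cpm in NIL-Prl5 and 2.54, 3.62 and 2.58 cpm in Koshihikari, 11.1-fold lower (log2 -3.47 ± 0.32, edgeR adjusted p = 0.000288). The alpha/beta hydrolase gene Os05t0410200-01 was at 2.53, 2.30 and 2.74 cpm in NIL-Prl5 and 9.27, 9.81 and 8.24 cpm in Koshihikari (log2 -1.85 ± 0.16), and both genes fell in the second comparison as well (log2 -2.68 and -1.67). A 1-deoxy-D-xylulose-5-phosphate synthase gene encodes the first enzyme of the plastid pathway to isoprenoid precursors, among whose products are carotenoids and gibberellins. Its transcript Os05t0408900-02 was at 6.65, 5.94 and 4.36 cpm in NIL-Prl5 and 14.4, 16.9 and 14.9 cpm in Koshihikari, 2.75-fold lower (log2 -1.46 ± 0.16, edgeR adjusted p = 0.00121), and fell by 1.05 in the second comparison.

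A gene of histidine synthesis, the 5-proFAR isomerase Os05t0400800-01, was at 12.1, 9.76 and 10.8 cpm in NIL-Prl5 and 28.1, 27.7 and 24.5 cpm in Koshihikari (log2 -1.30 ± 0.12, edgeR adjusted p = 0.000288), and fell by 1.04 in the second comparison. The cytochrome P450 gene Os05t0405500-01 fell by 1.40 ± 0.21 (edgeR adjusted p = 0.0117) and had a log2 fold change of -0.80 in the second comparison (edgeR adjusted p = 0.0811). An AUX1-like gene, whose class of proteins carry auxin into cells, was at 6.65, 6.37 and 5.28 cpm in NIL-Prl5 and 11.8, 12.2 and 9.23 cpm in Koshihikari (Os05t0447200-01, log2 -0.86 ± 0.15, edgeR adjusted p = 0.0295) and fell in the second comparison by 0.60. Neighbouring this set, a subunit gene of RNA polymerase II fell by 0.65 (Os05t0400700-01) and by 0.86 in the second comparison, and a cobalt transport family gene fell by 0.86 and 0.88 (Os05t0400600-01). Of the 6 genes of the run named for the largest falls, 5 kept their call without any 1 library, and of the 6 named for the largest rises 4 did.

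**Figure D3:**
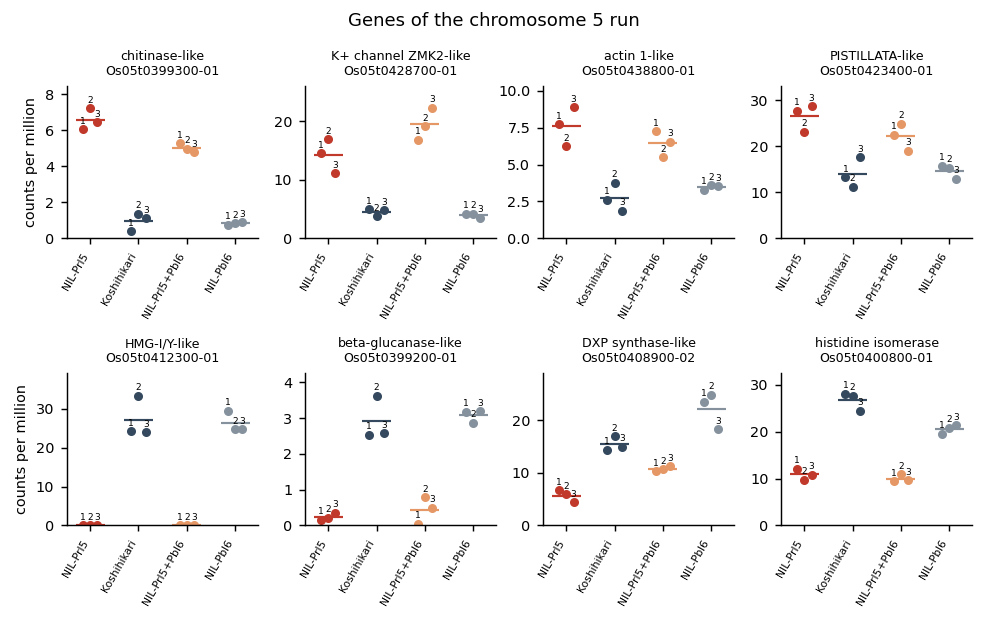
Expression in cpm (y axis, from 0) in each library of NIL-Prl5, Koshihikari, NIL-Prl5+Pbl6 and NIL-Pbl6 (x axis) for 8 genes of the chromosome 5 run; points are libraries with their replicate number and bars are means of 3. The upper 4 genes are higher and the lower 4 are lower in both lines with the Prl5 segment, and for the HMG-I/Y gene all 6 of these libraries lie at or near 0. Each pair of lines was normalised on its own.

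A further 8 transcripts of chromosome 5 had no count in any NIL-Prl5 library, and all 8 lay in the run and were described as hypothetical or of unknown domain. Measured against 3 counts per library they were at least 6.08-fold to at least 352-fold lower than in Koshihikari. Of them 5, the 2 transcripts of Os05g0414400 and those of Os05g0439200, Os05g0441500 and Os05g0441750, also had no count in NIL-Prl5+Pbl6, and none lacked counts in NIL-Pbl6. The others, Os05t0389900-01, Os05t0390932-01 and Os05t0392900-01, lie near the first locus of the run and had 29, 94 and 29 counts over the 3 libraries of NIL-Prl5+Pbl6, against 479, 1187 and 429 in NIL-Pbl6. In the other direction, the non-coding transcript Os05t0475550-00, beyond the run, had no count in Koshihikari and 4.84, 2.12 and 1.43 cpm in NIL-Prl5, at least 21.2-fold higher, and rose in the second comparison too (log2 3.61).

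All 53 changed transcripts of the run had the same direction in the second comparison, and 42 of them (79.2%) changed there as well, 11 of the 15 higher and 31 of the 38 lower. This may be set beside 19.2% of all transcripts tested in those windows. Their median log2 fold change was -1.30 in the first and -0.88 in the second comparison. Of the 25 changed transcripts of chromosome 5 outside the run, 19 had the same direction and 3 changed. The lists shared 45 transcripts on the chromosome, which was 57.7% of the 78 in the first and 39.5% of the 114 in the second. Leaving out Koshihikari replicate 1 or 3 or NIL-Prl5 replicate 1 or 3 kept 31, 39, 31 and 33 of the 53 calls in the run and 2, 6, 3 and 4 of the 25 outside it, while leaving out a replicate numbered 2 kept all of them.

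Outside the run, the transcript with the largest rise among named functions was similar to the circadian clock coupling factor ZGT (Os05t0494600-01). It was at 4.51, 2.72 and 4.40 cpm in NIL-Prl5 and 0.918, 1.55 and 0.872 cpm in Koshihikari (log2 1.81 ± 0.28, edgeR adjusted p = 0.0149), with a log2 fold change of 0.26 in the second comparison, where both lines were at a low level (edgeR adjusted p = 0.847). An amino acid channel gene, Os05t0111200-01, was at 45.2, 42.5 and 65.4 cpm in NIL-Prl5 and 19.1, 23.9 and 25.7 cpm in Koshihikari (log2 1.16 ± 0.17, edgeR adjusted p = 0.0106), and its log2 fold change in the second comparison was 0.03. A phosphoethanolamine methyltransferase gene, whose product makes the head group of phosphatidylcholine, was at 31.9, 33.1 and 33.2 cpm in NIL-Prl5 and 90.4, 49.1 and 70.7 cpm in Koshihikari (Os05t0548900-01, log2 -1.10 ± 0.18, edgeR adjusted p = 0.0182), against a log2 fold change of 0.32 in the second comparison. None of these libraries overlapped between NIL-Prl5 and Koshihikari, as the rule for naming genes required.

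A UDP-glucose pyrophosphorylase gene similar to UGP3 (Os05t0468600-00) fell by 1.14 ± 0.19 (edgeR adjusted p = 0.0213) with -0.04 in the second comparison. Of the 4 genes outside the run named for their size, none kept its call without each single library, and none changed in the second comparison. The 3 changed transcripts outside the run that did recur were, chosen after their values were seen, the non-coding Os05t0475550-00, a leucoanthocyanidin dioxygenase-like gene of flavonoid synthesis (Os05t0127500-01, log2 -0.94 and -1.08) and an HSC70 chaperone gene (Os05t0460000-01, log2 -0.87 and -0.50).

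On the other chromosomes 157 of 29021 transcripts changed (0.541%), 94 higher (0.324%) and 63 lower (0.217%). Again the libraries of the lines did not overlap in any of them, and overlap was not counted over all transcripts. Median log2 fold changes were 0.90 and -1.07, and 34 of the higher and 34 of the lower differed at least 2-fold. A function was named for 54 of the higher and 36 of the lower. At an unadjusted P under 0.05 there were 3549 higher and 3614 lower (12.2% and 12.5%). Without both replicates numbered 2 the adjusted counts became 5390 higher and 5228 lower (18.6% and 18.0%). Without Koshihikari replicate 1 or 3 or NIL-Prl5 replicate 1 or 3, only 28, 44, 28 and 23 of the 157 calls remained. Of the 94 higher transcripts, Koshihikari replicate 2 was the Koshihikari library nearest to NIL-Prl5 in 61, and NIL-Prl5 replicate 2 the one nearest to Koshihikari in 72. Of the 63 lower transcripts the numbers were 37 and 31. The same was not counted over all transcripts.

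Few of these changes recurred. Of the 157, 71 had the same direction in the second comparison (45.2%), 6 of them changed (3.82%), and 1 changed in the opposite direction. A further 5 of the 157 had no count in any library of that comparison, so they had no direction there. Of all transcripts off chromosome 5, 0.455% changed in the second comparison. The 6 came from 3 loci and were 4.55% of the 132 transcripts that changed off chromosome 5 in the second comparison. Without NIL-Prl5+Pbl6 replicate 2 the number was 10. When both comparisons were put in 1 edgeR fit over the 12 libraries, an interaction of the segments passed for 1243 transcripts (3.93%).

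The most marked of the 3 was OsYAB1, a YABBY transcription factor that in rice is known for a role in feedback regulation of gibberellin metabolism. Os07t0160100-02 was at 66.5, 41.8 and 70.1 cpm in NIL-Prl5, against 13.8, 12.8 and 24.3 cpm in Koshihikari. With the Pbl6 segment present it was at 37.8, 38.7 and 58.3 cpm in NIL-Prl5+Pbl6, against 18.1, 25.9 and 15.9 cpm in NIL-Pbl6. In each comparison all libraries with the Prl5 segment exceeded all those without it. The rise was 3.49-fold (log2 1.80 ± 0.24, edgeR adjusted p = 0.00639) in the first and 1.16 on the log2 scale (edgeR adjusted p = 0.00160) in the second comparison, and the call was kept in all 6 fits without a library. The 2 other transcripts of the locus, whose reads may be shared with it, rose by 2.00 ± 0.35 (Os07t0160100-01) and 1.80 ± 0.25 (Os07t0160100-03). Whether OsYAB1 rises in the same cells or more of its cells are present cannot be told apart in bulk panicles, and the same holds for every gene here.

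The thiazole biosynthetic enzyme gene makes the thiazole part of thiamine. Os07t0529600-01 was at 161, 147 and 161 cpm in NIL-Prl5 and 105, 95.0 and 88.2 cpm in Koshihikari (log2 0.70 ± 0.11, edgeR adjusted p = 0.0128). The level was much lower in both lines of the second comparison, at 20.5, 28.7 and 25.4 cpm in NIL-Prl5+Pbl6 and 12.1, 12.7 and 11.6 cpm in NIL-Pbl6, and the rise was 1.04 (edgeR adjusted p = 8.59e-05). Of 14 thiamine transcripts tested off chromosome 5, it was the one transcript that passed. The third locus was the unnamed Os09t0373100-00, at 1.21, 0.778 and 1.14 cpm in NIL-Prl5 and 2.06, 4.01 and 2.50 cpm in Koshihikari (log2 -1.46 ± 0.29, edgeR adjusted p = 0.0497), which fell by 1.62 in the second comparison. Of the 6 fits without a library, the first call was kept in 3 for the thiazole gene and in 2 for Os09t0373100-00.

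**Figure D4:**
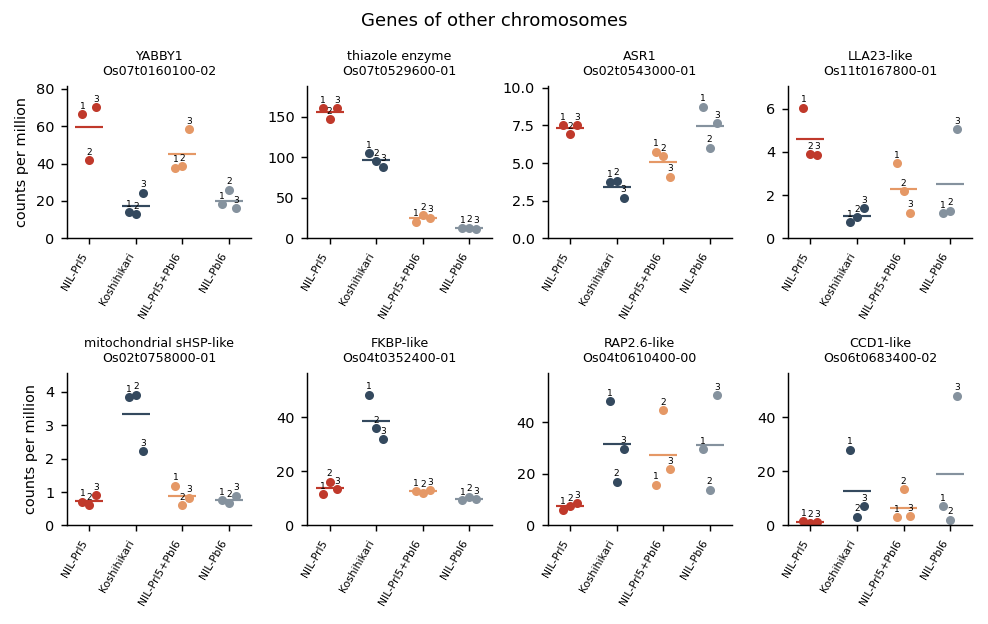
Expression in cpm (y axis, from 0) in each library of NIL-Prl5, Koshihikari, NIL-Prl5+Pbl6 and NIL-Pbl6 (x axis) for 8 changed genes outside chromosome 5; points are libraries with their replicate number and bars are means of 3. YABBY1 and the thiazole enzyme differ the same way in both pairs of lines, the FKBP-like and small heat shock genes are high in Koshihikari only, and the RAP2.6-like and CCD1-like genes vary widely among replicates of 3 lines. Each pair of lines was normalised on its own.

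Among the 12 named genes that rose most off chromosome 5, several are known from stress and desiccation. A gene similar to LLA23, a lily pollen protein of desiccation, was at 6.05, 3.89 and 3.87 cpm in NIL-Prl5 and 0.744, 0.966 and 1.39 cpm in Koshihikari (Os11t0167800-01, log2 2.12 ± 0.27, edgeR adjusted p = 0.00444). Abscisic stress ripening protein 1 (Os02t0543000-01), of the same family of small hydrophilic stress proteins, was at 7.53, 6.93 and 7.52 cpm in NIL-Prl5 and 3.72, 3.82 and 2.69 cpm in Koshihikari (log2 1.11 ± 0.17, edgeR adjusted p = 0.0128). The heat stress transcription factor B-2c gene was at 15.6, 13.4 and 22.1 cpm in NIL-Prl5 and 6.78, 9.61 and 7.97 cpm in Koshihikari (Os09t0526600-03, log2 1.08 ± 0.19, edgeR adjusted p = 0.0295). The log2 fold changes of these genes in the second comparison were -0.03, -0.55 and 0.40, and none passed the test.

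The chemocyanin gene Os02t0731400-01, which encodes a small copper protein of the cell wall, was at 9.18, 8.35 and 10.5 cpm in NIL-Prl5 and 4.07, 3.48 and 3.65 cpm in Koshihikari, 2.50-fold higher (log2 1.32 ± 0.15, edgeR adjusted p = 0.00155). In NIL-Prl5+Pbl6 it was at 8.24, 6.97 and 6.40 cpm and in NIL-Pbl6 at 7.71, 6.92 and 6.64 cpm. The values of all 3 near-isogenic lines were above those of Koshihikari, but each pair of lines was normalised on its own. The gene similar to LLA-115 (Os07t0565800-01) rose by 1.34 ± 0.17, the cadmium tolerant 1-like gene (Os06t0143100-02) by 1.15 ± 0.18 and a disease resistance response gene (Os08t0375400-01) by 1.09 ± 0.20. Others of the 12 were a Rossmann-fold gene, an alpha/beta hydrolase gene (Os07t0673400-01 and Os11t0239500-01) and 2 genes described only by a clone name. Of the 12, 4 kept their call without any single library (the LLA23-like, LLA-115-like, chemocyanin and OsYAB1 genes), and 1, OsYAB1, changed in the second comparison.

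Genes that remove reactive oxygen or bind metals were among the further changed members of the lists. A superoxide dismutase gene (Os03t0351500-01) was at 180, 189 and 242 cpm in NIL-Prl5 and 111, 116 and 82.3 cpm in Koshihikari (log2 0.99 ± 0.15, edgeR adjusted p = 0.0132), and a Cu-Zn superoxide dismutase gene (Os07t0665200-01) rose by 0.96 ± 0.14. In the glutathione and redox list off chromosome 5, 4 of 169 transcripts rose and none fell at an adjusted p under 0.05, and 39 against 6 did so at an unadjusted P under 0.05, with a median log2 fold change of 0.13 (-0.01 over all transcripts there). Among all transcripts off chromosome 5 the shares were 0.324% higher and 0.217% lower after adjustment and 12.2% and 12.5% before it. The second comparison gave 12 against 17 and a median of -0.02. Metallothionein genes of type 2 (Os01t0149800-01) and type 3 (Os01t0200700-01) rose by 0.92 and 0.63. Of the 22 abscisic acid transcripts, 4 rose, and all 4 were transcripts of the abscisic stress ripening gene Os02g0543000. Among 259 heat shock and chaperone transcripts 4 rose and 2 fell, and 50 against 24 passed at an unadjusted P under 0.05. With both replicates numbered 2 left out, the adjusted counts were 58 higher and 15 lower for redox, 70 and 43 for heat shock and chaperones and 6 and 1 for abscisic acid, where 18.6% of all transcripts were higher and 18.0% lower.

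The genes off chromosome 5 that fell most were of another kind, since several varied strongly among the Koshihikari libraries. A gene similar to the EF-hand calcium-binding protein CCD1 was at 1.59, 1.06 and 1.30 cpm in NIL-Prl5 and 28.0, 3.24 and 7.17 cpm in Koshihikari (Os06t0683400-02, log2 -3.30 ± 0.65, edgeR adjusted p = 0.0459). The CACTA transposon-derived Os01t0186900-02 was at 0.220, 0.142 and 0.261 cpm in NIL-Prl5 and 26.6, 1.11 and 7.73 cpm in Koshihikari (log2 -5.80 ± 1.03, edgeR adjusted p = 0.0295). An AP2-domain gene similar to RAP2.6, an ethylene response factor type of regulator, was at 6.16, 7.57 and 8.63 cpm in NIL-Prl5 and 48.2, 17.0 and 29.8 cpm in Koshihikari (Os04t0610400-00, log2 -2.08 ± 0.30, edgeR adjusted p = 0.00912). Of these 12 genes, 7 were highest in Koshihikari replicate 1 and lowest in Koshihikari replicate 2 within that line. All 7 were also highest in NIL-Prl5+Pbl6 replicate 2 and NIL-Pbl6 replicate 3 and lowest in NIL-Pbl6 replicate 2, so these genes varied together among replicates of 3 lines. CCD1, for example, had 3.01, 13.3 and 3.45 cpm in NIL-Prl5+Pbl6 and 7.11, 2.10 and 48.0 cpm in NIL-Pbl6. Among all 63 lower transcripts, 25 had the same order within Koshihikari. Of these, 13 were highest in NIL-Prl5+Pbl6 replicate 2, 15 highest in NIL-Pbl6 replicate 3 and 11 lowest in NIL-Pbl6 replicate 2. Such orders were not counted over all transcripts. The part of this variation in the fall was not tested.

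The small heat shock and FKBP-type genes among the 12 were steadier within each line. A mitochondrial small heat shock protein gene was at 0.715, 0.601 and 0.912 cpm in NIL-Prl5 and 3.85, 3.91 and 2.22 cpm in Koshihikari (Os02t0758000-01, log2 -2.14 ± 0.29, edgeR adjusted p = 0.00679). An FKBP-type peptidyl-prolyl isomerase gene was at 11.5, 16.2 and 13.4 cpm in NIL-Prl5 and 48.4, 35.9 and 32 cpm in Koshihikari (Os04t0352400-01, log2 -1.49 ± 0.17, edgeR adjusted p = 0.00142). Both genes were low in all 6 libraries of the second comparison, with at most 1.19 cpm and 13 cpm in NIL-Prl5+Pbl6 and at most 0.894 cpm and 10.7 cpm in NIL-Pbl6, and their log2 fold changes were 0.16 and 0.35. These 2 kept their call without any single library, and the other 10 lost it in at least 1 fit. The stearoyl-ACP desaturase gene (Os01t0880800-01) fell by 1.91, a RING finger gene (Os02t0681200-01) by 1.91, a glycosyl transferase family 8 gene (Os03t0678800-00) by 2.34, an AN1 zinc finger gene (Os09t0385700-01) by 1.72, an EF-hand gene (Os01t0135700-01) by 1.30 and the xyloglucan endotransglucosylase gene XTH5 (Os06t0696400-02), of wall loosening, by 1.16. None of the 12 changed in the second comparison.

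Another 8 transcripts off chromosome 5 had no count in any NIL-Prl5 library, and were at least 11.3-fold to at least 61.1-fold lower than in Koshihikari. All 8 also had no count in NIL-Prl5+Pbl6, and 5 of them none in NIL-Pbl6, where the other 3 had 1 count each. They were therefore seen almost only in Koshihikari, at unequal levels among its libraries. Os04t0590366-00 was at 3.11, 7.05 and 12.4 cpm in Koshihikari and Os01t0523800-00 at 2.89, 5.94 and 10.2 cpm. Over the 8, replicate 2 stood 1.73 to 2.71 times and replicate 3 stood 3.23 to 4.6 times above replicate 1. The description of Os02t0328500-00 was Myb/SANT-like, and the other 7 named no function. Neighbouring changed loci often moved together. Consecutive tested loci were both changed in 17 pairs off chromosome 5, 16 of them in the same direction. In the run of chromosome 5 there were 16 such pairs, 13 of them in the same direction. Direction was not counted over all neighbouring pairs, and whether such loci share reads was not tested. The 4 neighbouring DUF1210 genes of chromosome 10, chosen after their values were seen, all rose, by 0.74 to 1.05 (Os10t0150400-01, Os10t0150600-01, Os10t0150700-01 and Os10t0150800-01), and sharing of reads between such copies is uncertain.

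Gibberellin genes were close to all transcripts in their counts. Of 61 transcripts of gibberellin synthesis, inactivation and signalling in the table, 48 from 40 loci were tested, 7 were higher and 7 lower at an unadjusted P under 0.05 (14.6% each, against 12.3% higher and 12.7% lower among all transcripts), and 1 changed. When both replicates numbered 2 were left out, 9 were higher and 7 lower at an adjusted p under 0.05 (edgeR). Of all transcripts, 18.6% were then higher and 18.0% lower off chromosome 5, and 17.8% and 21.4% on it. With all 6 libraries, the log2 fold changes of the gibberellin transcripts ranged from -0.71 to 0.91. The changed one was a gene similar to gibberellin responsive1, at 5.94, 6.83 and 6.61 cpm in NIL-Prl5 and 3.06, 3.48 and 3.80 cpm in Koshihikari (Os01t0571100-01, log2 0.91 ± 0.16, edgeR adjusted p = 0.0264), with a log2 fold change of 0.02 in the second comparison. Among the synthesis enzymes, GA20ox1 was at 32.9, 35.2 and 33.3 cpm in NIL-Prl5 and 47.0, 39.0 and 42.7 cpm in Koshihikari (Os03t0856700-01, log2 -0.34 ± 0.11, edgeR adjusted p = 0.0959). GA20ox2 was at 1.43, 1.34 and 1.17 cpm in NIL-Prl5 and 0.481, 0.628 and 1.11 cpm in Koshihikari (Os01t0883800-02, log2 0.80 ± 0.32, edgeR adjusted p = 0.156). Neither passed after adjustment, and in GA20ox2 the lines were apart only narrowly (1.17 against 1.11 cpm). A gibberellin-regulated GASA gene had a log2 fold change of 0.71 ± 0.15 (Os07t0592000-01, edgeR adjusted p = 0.0527).

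KNOX homeobox genes maintain meristems and are known to repress GA 20-oxidase genes. None of the 8 tested changed with all 6 libraries, and 3 were lower at an adjusted p under 0.05 without both replicates numbered 2 (edgeR). Of all transcripts, 18.0% off chromosome 5 and 21.4% on it were then lower. OSH15 (Os07t0129700-01) was at 99.7, 124 and 80.8 cpm in NIL-Prl5 and 131, 125 and 120 cpm in Koshihikari (log2 -0.31, edgeR adjusted p = 0.198, and log2 -0.48 with adjusted p = 0.00183 without those replicates), and OSH1 (Os03t0727000-01) had a log2 fold change of -0.19 (edgeR adjusted p = 0.400, and 0.0440 without those replicates). The 7 KNOX transcripts off chromosome 5 had a median of -0.19, and 1 was lower at an unadjusted P under 0.05. Among other hormones, auxin transcripts off chromosome 5 had a median of -0.11, with 14 of 126 higher and 32 lower at that threshold, where 12.2% of all transcripts off chromosome 5 were higher and 12.5% lower. After adjustment 1 changed, a SAUR gene of the early auxin response that rose by 0.95 ± 0.14 (Os04t0608300-01, edgeR adjusted p = 0.00912). PIN-type auxin efflux genes were lower without passing, with log2 fold changes of -0.76 (Os11t0137000-01, edgeR adjusted p = 0.0572) and -0.70 (Os12t0133800-01). Jasmonate transcripts had a median of -0.26, with 1 of 41 higher and 13 lower at an unadjusted P under 0.05, and the second comparison gave a median of -0.17, with 4 higher and 13 lower. The adjusted counts without both replicates numbered 2 were 16 higher and 38 lower for auxin and 4 higher and 18 lower for jasmonate, against 18.6% higher and 18.0% lower among all transcripts there.

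Other lists moved by small amounts without any member passing the adjusted threshold, and the shares below are read against 12.2% higher and 12.5% lower among all transcripts off chromosome 5. Ribosomal proteins had a median log2 fold change of 0.20, with 91 of 345 transcripts higher and 4 lower at an unadjusted P under 0.05. Core histones, which package DNA, had a median of 0.20, and all 45 had a positive value, 14 of them with P under 0.05. Splicing factors had 26 of 67 higher and 4 lower and lipid transfer, wax and cutin genes 10 of 36 higher and none lower. The second comparison gave opposite signs for these lists, against 8.07% higher and 7.32% lower among all transcripts there. In it, 10 ribosomal transcripts were higher and 190 lower (median -0.21), no core histone was higher and 33 were lower (median -0.29), 2 splicing transcripts were higher and 13 lower, and 8 lipid transfer transcripts were lower. Without both replicates numbered 2, 223 ribosomal transcripts and 33 core histones were higher at an adjusted p under 0.05 (edgeR), with medians of 0.35 and 0.32, where 18.6% of all transcripts were higher. For splicing factors the counts were then 33 higher and 8 lower, and for lipid transfer genes 15 and 1.

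Photosynthesis transcripts differed from these in keeping their sign. Their median was 0.32, with 14 of 69 higher and 1 lower at an unadjusted P under 0.05, and 0.16 in the second comparison, with 18 higher and 1 lower. An oxygen-evolving enhancer protein 3-2-like gene of photosystem II passed after adjustment, at 30.8, 23.5 and 28.4 cpm in NIL-Prl5 and 13.9, 17.2 and 13.4 cpm in Koshihikari (Os07t0544800-01, log2 0.89 ± 0.14, edgeR adjusted p = 0.0136). Its log2 fold change was 0.26 in the second comparison (edgeR adjusted p = 0.268). Leaving out both replicates numbered 2, 33 photosynthesis transcripts were higher and none lower at an adjusted p under 0.05. Of all transcripts off chromosome 5, 18.6% were then higher and 18.0% lower. The photosynthesis transcripts serve here as markers of green tissue, and the part of tissue composition in the difference was not tested.

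Lists with lower values were led by cellulose and related glycan synthases, the enzymes that make wall polysaccharides. Their median was -0.30, with 3 of 44 higher and 18 lower at an unadjusted P under 0.05. The cellulose synthase-8-like gene fell, at 26.4, 33.3 and 23.9 cpm in NIL-Prl5 and 61.1, 38.5 and 57.4 cpm in Koshihikari (Os07t0252400-01, log2 -0.91 ± 0.17, edgeR adjusted p = 0.0398), and both changed transcripts of the list are from this locus. Receptor-like kinases had a median of -0.21 (1 of 124 higher, 32 lower), small RNA and chromatin genes -0.20 (none of 70 higher, 23 lower), sugar and starch genes -0.19 (5 of 92 higher, 31 lower) and DNA replication genes -0.16 (4 of 63 higher, 23 lower). A trehalose-6-phosphate phosphatase gene (Os02t0753000-01) of the sugar list fell by 0.82. The replication licensing gene CDC6 (Os01t0856000-01), whose description kept it out of the replication list, fell by 0.95. The medians in the second comparison were 0.18 for glycan synthases (12 higher, 0 lower), 0.12 for receptor-like kinases (19 higher, 2 lower), 0.10 for small RNA and chromatin genes (12 higher, 1 lower), 0.06 for sugar and starch genes (18 higher, 4 lower) and -0.03 for DNA replication genes (6 higher, 6 lower). The difference between comparisons was not tested for the lists. Without both replicates numbered 2 the adjusted counts in NIL-Prl5 against Koshihikari were 2 higher and 22 lower for glycan synthases, 6 and 47 for receptor-like kinases, 0 and 37 for small RNA and chromatin genes, 5 and 39 for sugar and starch genes and 7 and 23 for DNA replication genes. Of all transcripts off chromosome 5, 18.6% were then higher and 18.0% lower.

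**Figure D5:**
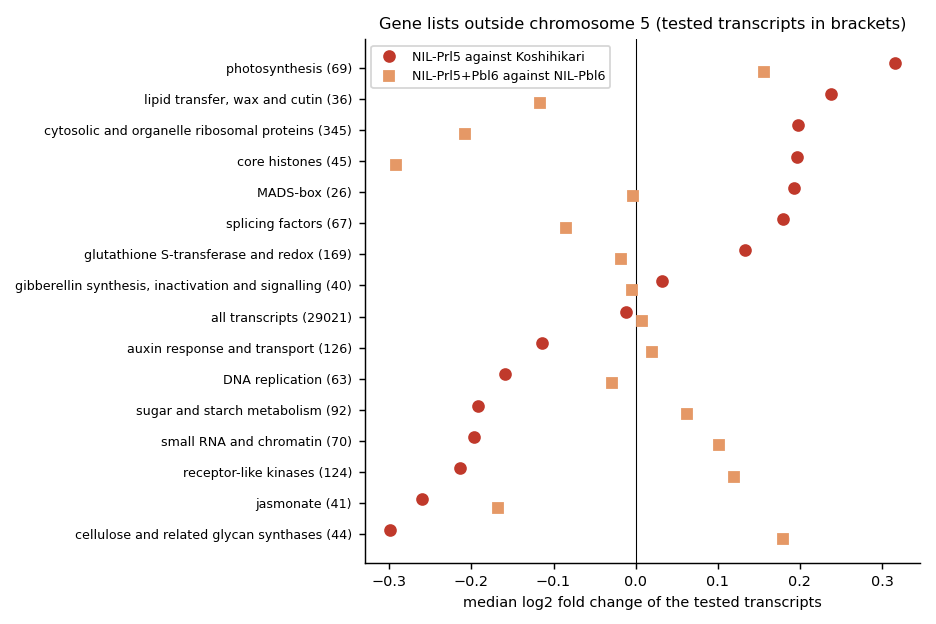
Median log2 fold change (x axis) of the tested transcripts outside chromosome 5 in 15 gene lists and in all transcripts (y axis, number of tested transcripts in brackets), for NIL-Prl5 against Koshihikari (red circles) and NIL-Prl5+Pbl6 against NIL-Pbl6 (orange squares). Ribosomal proteins and core histones stand at 0.20 in the first and at -0.21 and -0.29 in the second comparison, while photosynthesis is positive and jasmonate negative in both.

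On chromosome 5 the same lists are small, and they are read against 12.8% higher and 15.1% lower among all transcripts of the chromosome. Ribosomal proteins had a median of 0.18 (12 of 47 higher, 1 lower at an unadjusted P under 0.05) and auxin transcripts of -0.23 (0 of 22 higher, 11 lower), and in the auxin list the AUX1-like transcript Os05t0447200-01 passed after adjustment. Glutathione and redox transcripts had a median of 0.37 (7 of 12 higher, 0 lower), with the glutathione S-transferase gene of the run among them. Counts after adjustment without both replicates numbered 2 were 27 higher and 2 lower for ribosomal proteins, 1 and 12 for auxin and 8 and 0 for redox, against 17.8% and 21.4% of all transcripts there.

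MADS-box genes and the markers of floral organs had mostly positive log2 fold changes, and a few passed the test. Off chromosome 5 the MADS-box median was 0.19, with 8 of 26 higher and none lower at an unadjusted P under 0.05, and 12 higher and none lower after adjustment without both replicates numbered 2. Of all transcripts there, 12.2% were higher and 12.5% lower at that P, and 18.6% and 18.0% after adjustment without those replicates. The second comparison gave a MADS-box median close to 0, with 6 higher and 3 lower. The list holds 2 changed transcripts, SPW1 and Os07t0160100-03, and the second was listed by its description but is a transcript of OsYAB1. The summed level of 10 spikelet and floral organ genes was 603, 545 and 598 cpm in NIL-Prl5 and 446, 425 and 481 cpm in Koshihikari. These sums did not overlap. Of the 10, 9 had a positive log2 fold change (median 0.35), 6 had P under 0.05, and 2 changed, OsMADS4 and SPW1. On chromosome 5, where OsMADS4 lies, 12.8% of all transcripts were higher and 15.1% lower at that P. OsMADS7 had a log2 fold change of 0.79 (Os08t0531700-01, edgeR adjusted p = 0.0629), and 0.51 in the second comparison (edgeR adjusted p = 0.0177). OsMADS8 (Os09t0507200-01) had 0.42 in both, with edgeR adjusted p = 0.101 and 0.0119. Others of the marker list barely differed in the second comparison, with 0.04 for OsMADS3, 0.01 for OsMADS6 and -0.10 for OsMADS1. The summed level of 10 inflorescence and branch meristem genes was 764, 768 and 657 cpm in NIL-Prl5 and 732, 833 and 665 cpm in Koshihikari, which overlapped, and none of the 9 tested changed. Of these, 2 had an unadjusted P under 0.05, OsSPL14 (Os08t0509600-01, log2 0.45) and OSH15 (log2 -0.31). In the second comparison LAX1 (Os01t0831000-01) fell by 0.67 (edgeR adjusted p = 0.0103), against -0.07 in the first, and no other tested gene of this list passed. The 3 tapetum markers summed to 2.86, 3.18 and 2.80 cpm in NIL-Prl5 and 2.62, 2.37 and 2.66 cpm in Koshihikari and only 1 was tested. OsMADS4 and SPW1 belong to the spikelet list themselves, and whether the NIL-Prl5 panicles held more floral tissue was not tested.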

How the data were processed

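RNA of 2-mm young panicles was sequenced on an Illumina instrument, and the submitters' processing notes name bcl2fastq, Bowtie and the rice genome IRGSP-1.0. The authors deposited raw read counts per annotated transcript of all 12 libraries in 1 table with descriptions, and it is this table that was used. Strand and the handling of reads that match several places are not given in the sources used here. The 6 libraries were analysed in R 4.3.3 with edgeR 4.0.16: transcripts passing filterByExpr (minimum count 10, total 15) over the 12 libraries were scaled by TMM and tested by the quasi-likelihood test, two-sided, with Benjamini-Hochberg adjustment over 31643 transcripts and a threshold of 0.05. The study's methods name edgeR and a minimum P of 0.05, not the test or adjustment, so counts at an unadjusted P are given too. Transcripts of a locus often share reads and are not independent (5187 loci had several).

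Genes were named by rule: Prl5, then from changed transcripts whose lines did not overlap, whose higher line had a mean of 50 counts or more and whose description named a function, taking 1 per locus, the 8 that rose and 8 that fell most on chromosome 5 and 12 and 12 elsewhere, the 3 and 3 most changed others in each, the changed members of gene lists, and up to 4 members with the smallest P of lists described. The members, lists and tests were chosen with earlier results of these data known. A gibberellin identifier was left out of its list because its description was of another protein. A term for both segments and their interaction was fitted over the 12 libraries for the named genes. Alternatives were DESeq2 1.42.0, DESeq2's size factors, edgeR's exact test, other filters, all 12 libraries in 1 fit, sums per locus, the replicate number as a block, windows of 50 loci, and each library left out. The fit was tested on simulated data. Counting precision is set by the totals per library, and bounds against 3 counts cover counting error only.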

Additional observations from a re-analysis of the deposited data

Results flagged for a closer look

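Whether the Prl5 segment acted alike in both backgrounds was tested, for each transcript, by its log2 fold change with Pbl6 present minus that in Koshihikari, as an interaction term over the 12 libraries with edgeR's quasi-likelihood test. Of all 31643 transcripts 1243 passed (3.93%), and of the 53 named transcripts that could be tested 13 did. Most named genes were chosen for their size in the first comparison, which is part of this difference, so that their share is not set against that of all transcripts. Of these genes 4 lay on chromosome 5. The amino acid channel gene Os05t0111200-01 rose in NIL-Prl5 against Koshihikari and barely differed in NIL-Prl5+Pbl6 against NIL-Pbl6, a difference of -1.13 (adjusted p = 0.0324). The falls of the UGP3-like gene Os05t0468600-00 and the phosphoethanolamine methyltransferase gene Os05t0548900-01 stood beside log2 fold changes of -0.04 and 0.32 with Pbl6, and gave differences of 1.10 (adjusted p = 0.0413) and 1.43 (adjusted p = 0.0274). The hypothetical gene Os05t0390932-01 of the run fell in both comparisons, but had no count in NIL-Prl5 and 94 counts in NIL-Prl5+Pbl6, so that its fitted difference of 8.39 (adjusted p = 0.0379) is not a measured size.

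The other 9 lay elsewhere. Of the genes that rose in NIL-Prl5 against Koshihikari, the difference was -1.66 for abscisic stress ripening protein 1 (Os02t0543000-01, adjusted p = 0.0133), -1.31 for chemocyanin (Os02t0731400-01, adjusted p = 0.0133), -1.51 for the LLA-115-like gene (Os07t0565800-01, adjusted p = 0.0324) and -1.11 for the cadmium tolerant 1-like gene (Os06t0143100-02, adjusted p = 0.0413). It was -1.78 for Os04t0572800-00 (adjusted p = 0.0484) and -1.44 for Os02t0460200-02 (adjusted p = 0.0412), which are described by clone names, and -1.67 for the hypothetical Os03t0675500-00 (adjusted p = 0.0440). Of those that fell, it was 2.30 for the mitochondrial small heat shock protein gene (Os02t0758000-01, adjusted p = 0.0324) and 1.84 for the FKBP-type isomerase gene (Os04t0352400-01, adjusted p = 0.00123). In chemocyanin and both genes that fell, NIL-Prl5, NIL-Prl5+Pbl6 and NIL-Pbl6 all lay on 1 side of the Koshihikari libraries. The same held for abscisic stress ripening protein 1, the LLA-115-like gene, Os04t0572800-00 and Os02t0460200-02. On chromosome 5 it held for the amino acid channel and UGP3-like genes. It did not hold for the cadmium tolerant 1-like gene, the phosphoethanolamine methyltransferase gene and Os05t0390932-01. These orders cross separately normalised scales, and some rest on narrow gaps. For Os04t0572800-00 the lowest NIL-Pbl6 library was at 0.894 cpm and the highest Koshihikari library at 0.832 cpm. For the cadmium tolerant 1-like gene these values were 4.09 and 4.11 cpm.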

How the results depend on the processing

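The numbers of changed transcripts moved widely, while no called value changed its sign. Against 78 on chromosome 5 and 157 elsewhere, DESeq2 gave 258 and 1749, edgeR's exact test 322 and 2259, no filter on low counts 257 and 1539, a minimum of 10 counts in every library 49 and 90, and all 12 libraries in 1 fit 406 and 3229. With DESeq2's size factors in edgeR they were 81 and 173. Without both replicates numbered 2 they were 1028 and 10618, and at an unadjusted P under 0.05 they were 1243 and 13201, against 731 and 7163 with them. Leaving out 1 library gave 34 to 616 and 26 to 5958 at the adjusted threshold, and 476 to 1003 and 3863 to 10396 at the unadjusted P, with the highest counts without Koshihikari replicate 2. The share of higher transcripts moved as well: elsewhere the 94 higher and 63 lower became 10 and 19 when Koshihikari replicate 1 was left out, 23 and 33 when its replicate 3 was, and 15 and 14 or 9 and 17 when NIL-Prl5 replicate 1 or 3 was. On chromosome 5 the 27 higher and 51 lower became 289 and 327 when Koshihikari replicate 2 was dropped, 173 and 214 when NIL-Prl5 replicate 2 was, and 187 and 219 with all 12 libraries in 1 fit.

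The 45 transcripts of chromosome 5 that changed in both comparisons became 28 with a minimum of 10 counts, and the 6 elsewhere became 13 with no filter and 5 to 10 when 1 library was left out. The cause of these differences was not tested. Over the values of named genes, 3528 kept their side of the threshold, 840 passed only under the alternative and 651 only in the reported fit. The median of 1 list, aquaporins, moved beyond its spread. The replicate number as a block gave 34 changed transcripts on chromosome 5 and 35 elsewhere (12 higher and 23 lower), and the correlations of the deviations of same-numbered libraries were -0.176, -0.388 and -0.0466, so that the numbers do not pair the libraries. Depth limits the low genes, since a count of 3 equals up to 0.165 cpm.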

Other observations

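The values of further gene lists outside chromosome 5 are read against 12.2% higher and 12.5% lower among all transcripts in NIL-Prl5 against Koshihikari, and 8.07% and 7.32% in NIL-Prl5+Pbl6 against NIL-Pbl6. Of 201 NB-ARC and disease resistance transcripts, 12 were higher and 27 lower at an unadjusted P under 0.05 in NIL-Prl5 against Koshihikari (median log2 fold change -0.11), and 26 higher and 4 lower in NIL-Prl5+Pbl6 against NIL-Pbl6 (median 0.21). These genes encode intracellular immune receptors, and they share reads among copies. Of 342 pentatricopeptide repeat transcripts, whose proteins process organelle RNA, 14 were higher and 45 lower in the first (median -0.10) and 36 higher and 8 lower in the second comparison (median 0.07). Of 88 mitochondrial electron transport transcripts, 17 were higher and 5 lower in the first (median 0.12) and 3 higher and 15 lower in the second (median -0.12). SBP/SPL genes, regulators of panicle branching, had a median of -0.08 (2 of 24 higher, 9 lower) in the first and 0.16 (6 higher, 1 lower) in the second, and F-box transcripts were 39 higher and 9 lower of 300 in the first and 16 higher and 12 lower in the second. Differences between comparisons were not tested for the lists.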
